A study of Homo sapiens with 3 samples.

Results

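The regions described here are the peaks of lactylated histone H4 on human chromosome 1. The mark is lactylation of lysine 12 (H4K12la), and each of 3 peak lists was read for peaks on chromosome 1 of GRCh38 whose first base lies above 1000000. Of 191376 peaks in the 3 lists together, 20854 met this rule, with 6049 in 786-O replicate 2, 7063 in Caki-1 replicate 1 and 7742 in Caki-1 replicate 2. Peaks below 121 Mb form the short-arm part (3572 in 786-O, 2515 and 2779 in Caki-1 replicates 1 and 2), and peaks above 143 Mb form the long-arm part (2474 in 786-O, 4545 and 4960 in Caki-1). The stretch between these limits holds the centromere and the large block of repeats beside it, and each list had 3 peaks there.

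786-O and Caki-1 are established human renal carcinoma lines, grown untreated, and 786-O is known for the loss of the tumour suppressor VHL while Caki-1 carries it. CUT&Tag was used for mapping, where a transposase is brought by an antibody to the chromatin with the mark. 786-O enters with 1 library and Caki-1 with 2, and nothing in the labels states that the 2 Caki-1 libraries were made from different cultures, so the difference between them may be technical. The lists hold 62777, 60760 and 67839 peaks in the order given above, and the sources used here do not give their read depth. Among marker genes of renal epithelium and renal carcinoma, KRT8, KRT18 and VIM had a peak at the gene start in all 3 libraries, PAX8 in both Caki-1 libraries only, CDH6 in 786-O and Caki-1 replicate 2, and PAX2 and LHX1 in none. Among markers of blood, endothelium, liver and muscle, PTPRC, CD3E, PECAM1 and ALB had none. CDH5 had a peak at the gene end with the higher coordinates, in Caki-1 replicate 1 only. DES had peaks at that same end in 786-O and Caki-1 replicate 1. These peaks are therefore not given as peaks at a gene start.

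Lactylation adds a lactate-derived group to lysine side chains of histones, and it draws on the same intermediates that glycolysis supplies. On the tail of histone H4, lysine 12 lies among the lysines that also take up acetyl groups, and acylation of these residues is known from open, transcribed chromatin. Chromosome 1 is the largest human chromosome, and its arms are often gained or lost as units in tumour cells. A peak list records where enough fragments were found. With no control library used here, fewer peaks because of less of the mark and fewer peaks because of fewer DNA copies cannot be told apart.

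Promoter sequences show the kind of site that carried the mark on each arm. They come from RefSeq on GRCh38.p14, run 5′ to 3′ on the strand of the gene from 250 bases before its start to 50 after it, and are in lower case with matches to 6 motifs in capitals. The motifs are the GC box GGGCGG, the CCAAT box, the TATAAA box, the ETS core CCGGAA, the E box CACGTG and the cyclic AMP response element TGACGTCA, read on both strands with adjacent or overlapping matches joined into 1 run. The first pair of genes stood highest in the short-arm part, and the second pair stood at places 3 and 4 in the long-arm part. The 300 bases of each of these genes lie wholly under a peak in all 3 libraries. ZRANB2, which encodes a zinc finger protein of splicing, is at chr1:71080986-71081285, minus strand, and STIL, which encodes a factor of centriole duplication, is at chr1:47314098-47314397, minus strand. CACYBP, which encodes a calcyclin-binding protein, is at chr1:174999185-174999484, plus strand, and ODR4, the human counterpart of a worm gene of receptor trafficking, is at chr1:186375588-186375887, plus strand.
ZRANB2: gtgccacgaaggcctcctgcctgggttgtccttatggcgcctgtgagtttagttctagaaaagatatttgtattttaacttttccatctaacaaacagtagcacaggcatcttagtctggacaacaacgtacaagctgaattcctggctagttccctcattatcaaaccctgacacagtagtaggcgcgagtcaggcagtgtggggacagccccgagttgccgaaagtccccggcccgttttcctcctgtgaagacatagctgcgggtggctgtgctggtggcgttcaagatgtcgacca
STIL: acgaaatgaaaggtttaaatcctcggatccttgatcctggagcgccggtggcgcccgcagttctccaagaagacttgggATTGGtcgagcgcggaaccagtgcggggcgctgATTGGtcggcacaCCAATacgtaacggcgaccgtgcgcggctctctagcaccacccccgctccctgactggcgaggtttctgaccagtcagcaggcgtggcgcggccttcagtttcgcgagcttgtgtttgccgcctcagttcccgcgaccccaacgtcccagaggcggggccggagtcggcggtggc
CACYBP: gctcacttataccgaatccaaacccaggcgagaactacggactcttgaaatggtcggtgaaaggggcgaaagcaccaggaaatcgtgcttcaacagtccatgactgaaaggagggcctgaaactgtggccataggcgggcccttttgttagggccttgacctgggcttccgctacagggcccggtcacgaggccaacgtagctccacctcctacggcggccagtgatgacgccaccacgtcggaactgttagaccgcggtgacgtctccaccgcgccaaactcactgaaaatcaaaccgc
ODR4: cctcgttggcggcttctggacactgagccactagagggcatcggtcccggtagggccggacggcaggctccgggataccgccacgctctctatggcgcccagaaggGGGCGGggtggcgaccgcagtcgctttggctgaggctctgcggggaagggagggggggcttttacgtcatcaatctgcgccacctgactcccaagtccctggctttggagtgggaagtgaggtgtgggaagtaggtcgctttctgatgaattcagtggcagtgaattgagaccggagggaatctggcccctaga

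The next set holds, for each part, the highest-ranked gene with a gene-start peak in 1 line and no peak near the gene ends or start in the other line. B3GALT6, a galactosyltransferase gene of proteoglycan synthesis at chr1:1231987-1232286, plus strand, had 170 of its 300 bases under the 786-O peak and 0 under a Caki-1 peak. SPAG17, a gene of the central pair of motile cilia at chr1:118185179-118185478, minus strand, had all 300 under a peak in both Caki-1 libraries and 0 in 786-O. FCRLA, a gene of B cells at chr1:161706979-161707278, plus strand, had 40 bases under the 786-O peak and 0 in Caki-1. NUP133, which encodes a subunit of the nuclear pore at chr1:229508292-229508591, minus strand, had all 300 under a peak in both Caki-1 libraries and 0 in 786-O.
B3GALT6: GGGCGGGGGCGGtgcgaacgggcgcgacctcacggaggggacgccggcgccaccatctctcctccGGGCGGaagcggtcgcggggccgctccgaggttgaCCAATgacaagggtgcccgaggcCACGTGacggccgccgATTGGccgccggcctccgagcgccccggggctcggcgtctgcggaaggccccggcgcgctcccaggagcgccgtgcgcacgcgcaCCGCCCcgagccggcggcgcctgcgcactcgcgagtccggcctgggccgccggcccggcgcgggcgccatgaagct
SPAG17: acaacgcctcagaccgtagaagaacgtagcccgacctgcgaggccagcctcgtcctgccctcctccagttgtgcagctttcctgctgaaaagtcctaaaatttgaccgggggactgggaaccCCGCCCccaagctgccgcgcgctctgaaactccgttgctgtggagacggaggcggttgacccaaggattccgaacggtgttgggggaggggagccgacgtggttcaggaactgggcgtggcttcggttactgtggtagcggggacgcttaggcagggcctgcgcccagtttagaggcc
FCRLA: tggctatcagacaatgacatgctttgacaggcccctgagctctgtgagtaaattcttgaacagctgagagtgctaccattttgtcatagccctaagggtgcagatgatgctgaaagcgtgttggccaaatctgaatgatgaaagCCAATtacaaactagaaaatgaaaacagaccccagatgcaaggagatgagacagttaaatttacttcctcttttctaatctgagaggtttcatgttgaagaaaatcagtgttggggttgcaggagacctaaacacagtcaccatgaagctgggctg
NUP133: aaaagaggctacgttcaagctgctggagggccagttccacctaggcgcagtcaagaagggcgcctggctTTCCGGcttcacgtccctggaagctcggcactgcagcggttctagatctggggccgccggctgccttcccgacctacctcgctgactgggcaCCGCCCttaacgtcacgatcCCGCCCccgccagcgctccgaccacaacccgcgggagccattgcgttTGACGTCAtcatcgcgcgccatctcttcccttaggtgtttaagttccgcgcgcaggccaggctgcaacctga

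The number of CpG dinucleotides differs widely among these windows. It is 53 for B3GALT6, 33 for STIL, 28 for NUP133, 23 for SPAG17, 22 for CACYBP, 19 for ODR4, 12 for ZRANB2 and 1 for FCRLA. FCRLA stands apart as the window with hardly any CpG, and it is also the one whose peak reaches the least of it. The median over all 15812 promoters of the table is 22. In the short-arm part, 431 promoters of genes with a gene-start peak in all 3 libraries had a median of 27 CpG dinucleotides, against 8 for 305 promoters of genes with none. The long-arm medians were 23 for 385 promoters marked in all 3 libraries and 3 for 299 marked in none. Promoters marked in every library were thus richer in CpG on both arms.

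The GC box was in 71.2% of the promoters marked in all 3 libraries in the short-arm part and in 71.2% in the long-arm part. It was in 41.6% and 20.4% of those marked in none in the short-arm and long-arm parts, and in 58.5% of all promoters. The TATAAA box ran the other way, with 3.02% and 4.68% of the marked promoters, 12.5% and 26.8% of the unmarked ones, and 9.64% of all promoters. The ETS core was in 33.9% and 28.1% of the marked and 11.5% and 5.35% of the unmarked promoters, against 22.8% of all. The CCAAT box was in 36.3% of all promoters, the E box in 8.87% and the cyclic AMP response element in 2.59%. The CCAAT box differed little by mark, with 39.4% and 39.7% of the marked and 35.7% and 35.5% of the unmarked promoters.

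The 2 lines differed in opposite directions on the 2 sides of the centromere. The short-arm part held 5.69% of all 786-O peaks (95% exact binomial interval 5.51 to 5.87), against 4.14% (3.98 to 4.30) and 4.10% (3.95 to 4.25) in replicates 1 and 2 of Caki-1. The long-arm part held 3.94% of 786-O peaks (3.79 to 4.10), against 7.48% (7.27 to 7.69) and 7.31% (7.12 to 7.51) in Caki-1. 786-O lay above both Caki-1 libraries on the short arm and below both on the long arm, and the Caki-1 libraries lay side by side. The share in 786-O was 1.38-fold the Caki-1 mean in the short-arm part, a log2 ratio of 0.47, and its log2 ratio in the long-arm part was -0.91, which is 1.88-fold lower. Between the Caki-1 replicates the log2 ratios, replicate 2 over replicate 1, were -0.015 in the short-arm part and -0.033 in the long-arm part.

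These intervals and those below are Clopper-Pearson intervals that cover counting error only. Peak positions are what the members were chosen by, and 786-O has no replicate here, so the shares are a description, and so is every difference between the lines on this chromosome given below. An exact permutation of the labels of the 3 libraries cannot give a p below 0.333, and none was computed between the lines. Over the whole chromosome the opposite differences partly offset each other. Chromosome 1 held 9.66% of 786-O peaks, against 11.6% and 11.4% in Caki-1, a log2 ratio of -0.26 that was the fourth lowest of 23 chromosomes, after chromosomes 13, 17 and 2.

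Seen within chromosome 1, the long-arm part took 40.9% of the peaks of both parts in 786-O (39.7 to 42.2), against 64.4% (63.2 to 65.5) and 64.1% (63.0 to 65.2) in Caki-1. The 2 parts hold similar numbers of protein-coding genes, 1064 in the short-arm part and 973 in the long-arm part. Short-arm peaks numbered 3.36 per gene in 786-O, against 2.36 and 2.61 in the Caki-1 libraries. Long-arm peaks numbered 2.54 per gene in 786-O, against 4.67 and 5.10 in the Caki-1 libraries. The arm with more peaks per gene was thus the short one in 786-O and the long one in both Caki-1 libraries.

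The parts were cut at fixed positions. Just inside the first limit, the first peak began at base 1000229 in 786-O (column 6 value 33), at 1013234 in Caki-1 replicate 1 (18) and at 1004670 in Caki-1 replicate 2 (20), and the last one outside began at 975954, 938086 and 976031. The last peak below 121 Mb began at 120850393 in 786-O, 120942285 in Caki-1 replicate 1 and 120946906 in Caki-1 replicate 2, and the next one began at 121184455, 121184478 and 121184493. Above 143 Mb the first peak began at 143318834, 143318856 and 143905432, and the last one before it at 121519008, 121518698 and 121518873. The peaks just beyond the limits on the side of the centromere thus lay at almost the same places in all libraries, and Caki-1 replicate 2 lacked the first long-arm peak of the other lists.

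**Figure D1:**
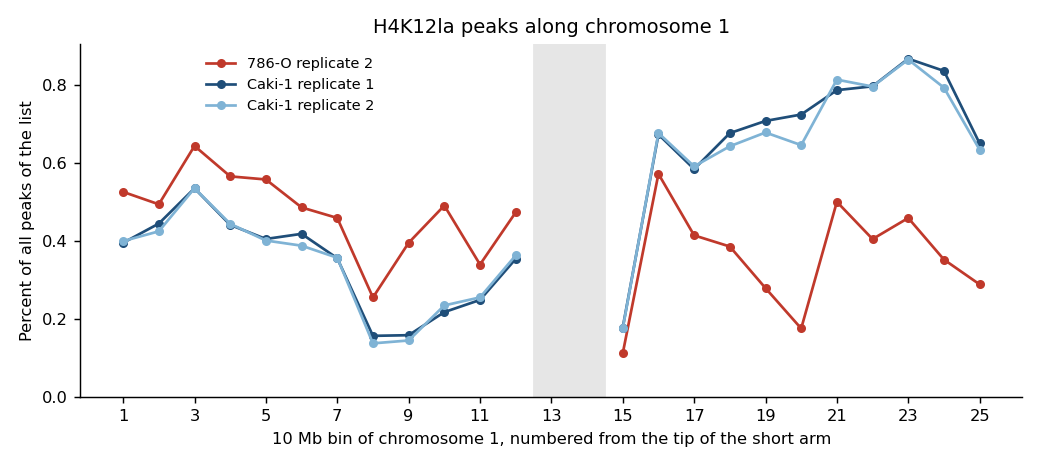
Peaks of each 10 Mb bin of chromosome 1 as a percent of all peaks of the list (vertical axis), with bins numbered from the tip of the short arm (horizontal axis), 1 line per library and the centromeric bins in grey. The 786-O line runs above both Caki-1 lines in all 12 short-arm bins and below both in all 11 long-arm bins, and the Caki-1 lines overlie each other.

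At the scale of 10 Mb the difference ran along whole arms, and its size varied within them. Some windows of 2.5 Mb went against their arm. From 72.5 to 75 Mb 786-O had 9 peaks, against 24 and 22 in the Caki-1 libraries, and from 102.5 to 105 Mb it had 16, against 24 and 27. On the long arm it had 105 from 152.5 to 155 Mb, against 84 and 92. In 10 Mb bins numbered from the tip of the short arm, a bin was called when its share in 786-O differed from that of both Caki-1 libraries in 1 direction by at least 0.32 on the log2 scale. On chromosome 1, 9 of 23 bins were called higher in 786-O and all 9 lay among the 12 of the short arm, while across all chromosomes 91 of 300 bins were called higher (30.3%). 10 of the 23 were called lower in 786-O and all 10 lay among the 11 of the long arm, against 77 of 300 across all chromosomes (25.7%). The other 4, bins 2, 3, 6 and 16, had ratios of 1.14, 1.20, 1.21 and 0.847. Since the rule itself uses peak counts along the chromosome, nothing is read from these counts beyond where the bins lie. Between the Caki-1 replicates no bin of chromosome 1 differed by more than 0.19 on the log2 scale.

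Bins 8 to 10, from 70 to 100 Mb, stood out on the short arm. Bin 9 had 248 peaks in 786-O, against 96 and 98 in the Caki-1 libraries, a share 2.61-fold higher. Bin 10 had 308 in 786-O, against 132 and 159, or 2.17-fold higher, and bin 8 had 160, against 95 and 93, or 1.74-fold higher. The other 9 short-arm bins had ratios between 1.14 and 1.38. In Caki-1 replicates 1 and 2, bins 8 and 9 held the lowest shares of the short arm, 0.156% and 0.158% in replicate 1 and 0.137% and 0.144% in replicate 2. In 786-O bin 9 had 0.395%, between the 0.255% of bin 8 and the 0.491% of bin 10.

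The gene-start peaks with the highest rank in any list lay at SRSF11, HS2ST1 and CCDC18 in these bins. HS2ST1, a heparan sulfate sulfotransferase gene in bin 9, had a summit signal of 158 in 786-O (chr1:86913556-86915184), against 53 in Caki-1 replicate 1 and a score of 264 in Caki-1 replicate 2. Signal is read here as the height of the pileup at the summit and score as the list's own measure of strength, so the score is set against no signal. As percentile ranks within each list these values were 99.97, 94.8 and 97.7, the highest in 786-O. CCDC18, a coiled-coil gene in bin 10, had 109 in 786-O, against 38 and a score of 160 in the Caki-1 libraries, which are ranks of 99.7, 85.7 and 91.7. SRSF11, which encodes a serine- and arginine-rich splicing factor in bin 8, had 136 in 786-O, against 66 and a score of 257, which are ranks of 99.9, 97.7 and 97.5. All 3 genes carried the peak in every library, and the choice by the highest rank in any list bears on which list ranks highest.

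On the long arm, bins 19 and 20, from 180 to 200 Mb, differed most. Bin 20 had 110 peaks in 786-O, against 440 and 438 in the Caki-1 libraries, a share 3.91-fold lower in 786-O. Bin 19 had 175 in 786-O, against 430 and 460, or 2.49-fold lower, and bin 24, from 230 to 240 Mb, had 221, against 508 and 538, or 2.31-fold lower. Bin 20 is the poorest in genes of the 11, with 28 protein-coding genes, and 786-O had 3.93 peaks per gene there, against 15.7 and 15.6 in Caki-1. Bin 16, from 150 to 160 Mb, is the richest with 281 genes and differed least of the long-arm bins, with 359 peaks in 786-O, against 409 and 459 in the Caki-1 libraries.

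The gene-start peaks chosen in the same way in bins 20, 19 and 24 were strong in 786-O too. GLRX2, a mitochondrial glutaredoxin gene in bin 20, had a signal of 93 in 786-O (chr1:193104635-193105570), against 107 and a score of 416 in Caki-1, or ranks of 99.3, 99.8 and 99.6. SWT1, the human counterpart of a yeast RNA endonuclease gene, in bin 19, had 109 in 786-O, against 139 and a score of 732, or ranks of 99.7, 99.96 and 99.97. TSNAX, the gene of the translin partner trax in bin 24, had 75 in 786-O, against 123 and a score of 686, or ranks of 98.0, 99.9 and 99.97. The ranks of all 3 were lower in 786-O than in both Caki-1 libraries, and all lay within the top 2% of each list.

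**Figure D2:**
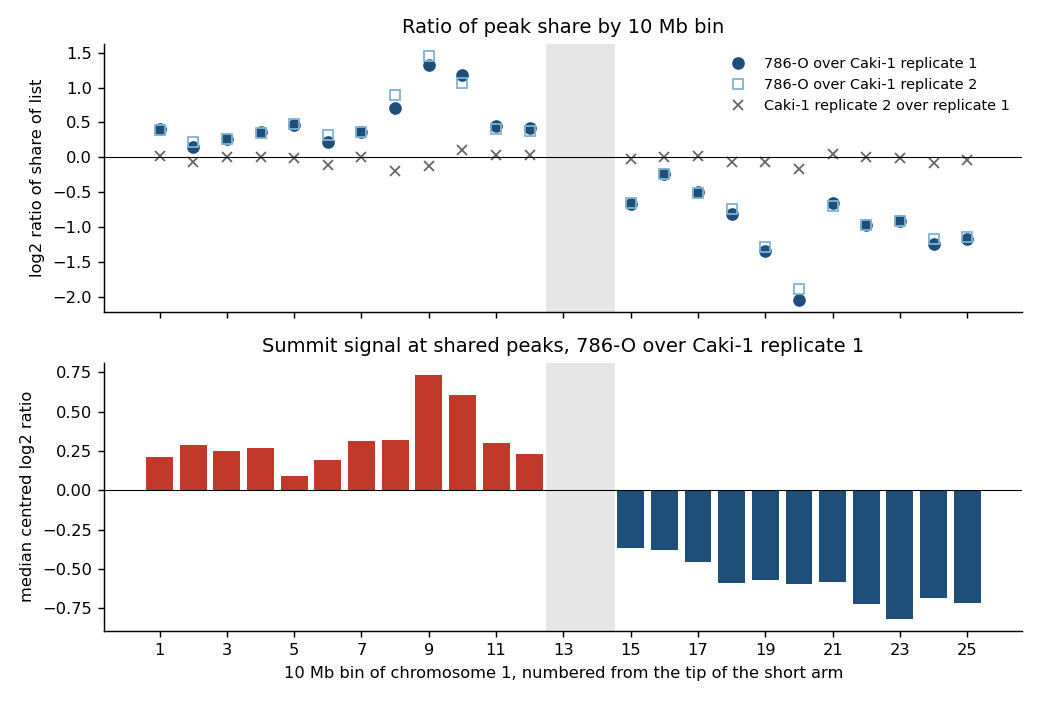
Above, log2 ratio of the share of the list per 10 Mb bin for 786-O over each Caki-1 library (filled and open symbols) and for Caki-1 replicate 2 over replicate 1 (crosses). Below, median log2 ratio of summit signal, 786-O over Caki-1 replicate 1, at peaks shared by these lists, centred on the genome median. Ratios are above 0 in every short-arm bin and below 0 in every long-arm bin in both panels, and the crosses stay within 0.19 of 0.

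Bins with fewer genes tended to differ more on both arms. The Spearman correlation of the log2 share ratio with the number of protein-coding genes per bin was -0.573 over the 12 short-arm bins and 0.791 over the 11 long-arm bins. The signs are opposite, as 786-O is higher on one arm and lower on the other. These are descriptions over bins that come from the same libraries and lie next to each other.

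Counts of peaks at gene starts and of peaks elsewhere gave different balances of the arms. A gene-start peak is one within 1 kb of the start of a protein-coding gene, or of either end where the strand is not known here. Among gene-start peaks, the long-arm part took 44.8% in 786-O (41.6 to 48.0), against 48.7% (45.7 to 51.7) and 48.8% (45.8 to 51.8) in Caki-1, and these intervals overlap. Among other peaks within genes it took 39.1% in 786-O (37.4 to 40.8), against 64.0% (62.5 to 65.5) and 63.6% (62.1 to 65.1). Outside genes it took 42.0% in 786-O (39.8 to 44.3), against 72.7% (70.7 to 74.5) and 71.9% (70.1 to 73.7). The widest distance between the lines was thus outside genes and the narrowest at gene starts.

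**Figure D3:**
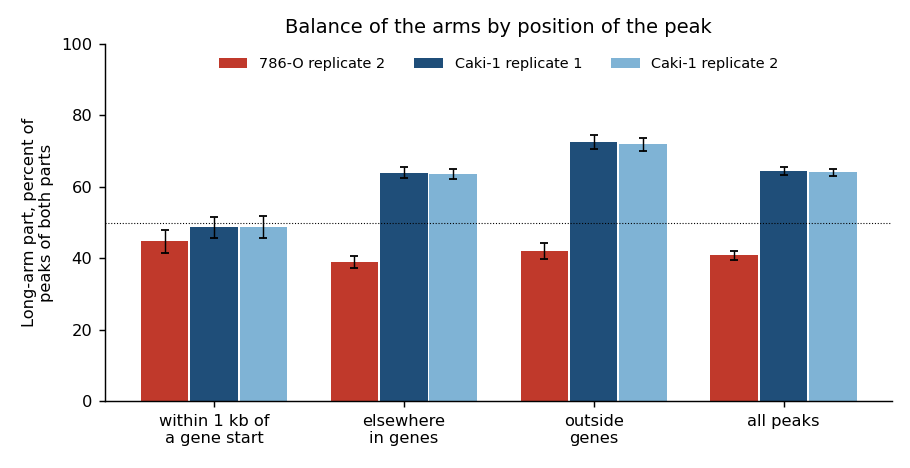
Peaks of the long-arm part as a percent of the peaks of both parts of chromosome 1 (bars, from 0), by position of the peak and library, with 95% exact binomial intervals and a dotted line at 50%. At gene starts the bars are 44.8% in 786-O, against 48.7% and 48.8% in the Caki-1 libraries, and outside genes they are 42.0%, against 72.7% and 71.9%.

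As shares of each list's gene-start peaks, the short-arm part had 5.77% in 786-O, against 5.60% and 5.56% in the Caki-1 libraries, a log2 ratio of 0.05. The long-arm part had 4.68% in 786-O, against 5.32% and 5.29%, a log2 ratio of -0.18. Away from gene starts the short-arm part had 5.68% in 786-O, against 3.85% and 3.84%, a log2 ratio of 0.56. The long-arm part had 3.81% in 786-O, against 7.90% and 7.67%, a log2 ratio of -1.03. The excess and the deficit of 786-O peaks were therefore mostly counts of peaks away from gene starts.

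The make-up of the peaks changed with the counts. Gene-start peaks were 15.0% of the short-arm peaks of 786-O, against 22.0% and 20.6% in Caki-1, and 17.6% of its long-arm peaks, against 11.6% and 10.99%. Peaks outside genes were 31.1% of the short-arm peaks of 786-O, against 24.0% and 24.7%, and 32.5% of its long-arm peaks, against 35.3% and 35.4%. Median widths in the short-arm part were 504.5 bp in 786-O, against 515 and 582 bp, and in the long-arm part 495 bp, against 548 and 595 bp. Widths in the 3 lists as wholes had the same order, with medians of 497 bp in 786-O, against 520 and 576 bp.

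Summit signal differed between the arms at gene starts as much as elsewhere. The signal has 1 meaning in the lists of 786-O and Caki-1 replicate 1, so it was compared at the 27945 peaks of the genome that these lists share, after taking off the genome median log2 ratio of 0.13. At 1424 shared peaks of the short-arm part the median signal was 34 in 786-O, against 25 in Caki-1 replicate 1, a centred log2 ratio of 0.27 with quartiles of -0.06 and 0.61. At 1568 shared peaks of the long-arm part it was 26 in 786-O, against 38, a centred log2 ratio of -0.59 with quartiles of -0.94 and -0.27. Even the upper quartile of the long-arm part thus lay below 0.

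Shared gene-start peaks gave 0.26 in the short-arm part (453 peaks, medians of 46 in 786-O, against 35 in Caki-1 replicate 1) and -0.60 in the long-arm part (395 peaks, 41 in 786-O, against 59 in Caki-1 replicate 1). Other shared peaks gave 0.27 in the short-arm part (971 peaks, 29 in 786-O, against 22 in Caki-1 replicate 1) and -0.59 in the long-arm part (1173 peaks, 23 in 786-O, against 33 in Caki-1 replicate 1). The ratio was therefore almost the same at gene starts and elsewhere on either arm, although the counts were not. By bin the centred ratio was 0.74 in bin 9 and 0.61 in bin 10, and between 0.09 and 0.32 in the other short-arm bins. Long-arm bins ran between -0.37 in bin 15 and -0.82 in bin 23, and bin 20 with the fewest 786-O peaks of bins 16 to 25 had -0.60. Medians of the other chromosomes, each taken whole, ran between -0.49 on chromosome 13 and 0.66 on chromosome 14. The long-arm part of chromosome 1 lay below each of these, but no other chromosome was split by arm here. A peak called in both lists had to pass both callings, so these ratios say nothing of peaks found in 1 list.

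The strongest 10% of each list showed the same opposition at gene starts. In the short-arm part 42.0% of the gene-start peaks of 786-O were in the top 10% of the list (225 of 536), against 25.6% (142 of 554) and 29.7% (170 of 572) in Caki-1. In the long-arm part 34.7% were (151 of 435), against 62.7% (330 of 526) and 53.2% (290 of 545). Away from gene starts the shares in the top 10% were 6.29% in the short-arm part of 786-O, against 3.37% and 4.62%, and 4.66% in the long-arm part, against 12.9% and 8.92%. Gene-start peaks in the long-arm part were found in both lines but ranked lower in 786-O.

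Long stretches without any peak marked where the lines parted. The longest in 786-O ran over 4.98 Mb (chr1:187270106-192251874) and held 222 peaks in Caki-1 replicate 1 and 221 in replicate 2. Only 1 of them in each replicate lay at a gene start, that of BRINP3, a neuronal gene, with a signal of 31 in replicate 1 (chr1:190478103-190478950) and a score of 98 in replicate 2. RGS18, a regulator of G protein signalling in blood cells, also lies there and had no gene-start peak in any list. Another stretch without 786-O peaks (chr1:194104710-195592113, 1.49 Mb) held 60 and 50 Caki-1 peaks and no protein-coding gene, and the third (chr1:238624218-239814405, 1.19 Mb) held 45 and 42. All 3 stretches of the long arm of over 1 Mb without a 786-O peak held at least 20 peaks in each Caki-1 list. None of the 4 such stretches of the short arm did.

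The reverse was seen on the short arm. 786-O had 20 peaks over 1.85 Mb where both Caki-1 lists had none (chr1:48498898-50348794 in replicate 1, chr1:48498710-50348620 in replicate 2). They lay towards its ends, as 786-O also had no peak over 1.06 Mb inside it (chr1:48961518-50023084). AGBL4, a deglutamylase gene that fills most of this stretch, had a gene-start peak of 628 bp in 786-O with a low signal of 11, the 1.961 percentile of its list. BEND5 and the neuronal RNA-binding gene ELAVL4, which also lie there, had none. Around AJAP1, a gene of adherens junctions, 786-O had 31 peaks over 1.98 Mb where Caki-1 replicate 1 had none (chr1:3901503-5877443), and 32 over 2.01 Mb where replicate 2 had none (chr1:3901532-5909231). These 786-O peaks had a highest signal of 56, at the 94.2 percentile, and none lay at a gene start. Of 9 and 7 short-arm stretches of over 1 Mb without a peak in Caki-1 replicates 1 and 2, 4 and 4 held at least 20 peaks of 786-O.

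One long-arm stretch of over 1 Mb without a peak in a Caki-1 list held at least 20 peaks of 786-O. Over 1.05 Mb (chr1:152441097-153495060) 786-O had 46 peaks, of which 10 lay at gene starts, while Caki-1 replicate 1 had no peak and replicate 2 had 7. The stretch holds 45 protein-coding genes of the epidermal differentiation complex, with the late cornified envelope genes, the small proline-rich genes, IVL and LORICRIN, which build the cornified layer of skin, and the calgranulin genes S100A8 and S100A9. Its 786-O peaks were of middling strength, with a highest signal of 27 at the 65.6 percentile. Several of these genes have near-identical copies, so single genes there are uncertain. Bin 16, which holds it, is the long-arm bin that was not called. The stretch was chosen after its values were seen.

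Overlap between the lists followed the same division. Of short-arm peaks of 786-O, 39.9% and 43.0% were overlapped by at least 1 bp by peaks of Caki-1 replicates 1 and 2, and of its long-arm peaks 63.4% and 66.2% did, against 44.0% and 47.3% on the other chromosomes. In the other direction, 56.6% and 55.1% of the short-arm peaks of Caki-1 replicates 1 and 2 overlapped 786-O, and 34.5% and 32.8% of their long-arm peaks, against 46.4% and 44.3% on the other chromosomes. Between the Caki-1 replicates the arms were alike, with 67.3% and 67.6% of replicate 1 found in replicate 2 and 60.3% and 61.3% of replicate 2 found in replicate 1. On each arm the line with fewer peaks had the larger part of them in the other line. This follows from the peak counts, since the number of shared peaks is nearly the same from either side. For 786-O and Caki-1 replicate 1 it was 1424 in the short-arm part and 1568 in the long-arm part in both directions.

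**Figure D4:**
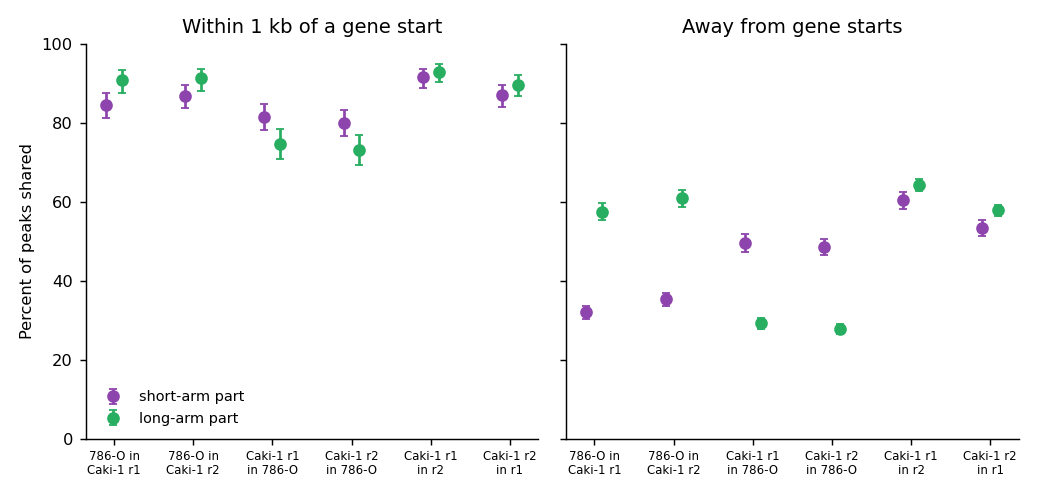
Percent of the peaks of a list that overlap a peak of another list by at least 1 bp (vertical axis), for each ordered pair of lists, in the short-arm and long-arm parts, with 95% exact binomial intervals. Gene-start peaks (left) are shared at 73.2% or more for every pair, and away from gene starts (right) the order of the arms for 786-O peaks is the reverse of that for Caki-1 peaks found in 786-O.

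At gene starts most peaks were common to the lines. Of the gene-start peaks of 786-O, 84.5% and 86.9% in the short-arm part and 90.8% and 91.3% in the long-arm part overlapped Caki-1 replicates 1 and 2. Of those of Caki-1 replicates 1 and 2, 81.6% and 80.1% in the short-arm part and 74.7% and 73.2% in the long-arm part overlapped 786-O. Peaks of 786-O found in neither Caki-1 list numbered 1813 in the short-arm part (50.8%), of which 56 lay at gene starts, and 678 in the long-arm part (27.4%), of which 32 did. Peaks that Caki-1 replicate 1 shared with replicate 2 and not with 786-O numbered 487 in the short-arm part (19.4%) and 1663 in the long-arm part (36.6%), of which 67 and 103 lay at gene starts. The counts for the lines are not symmetric, since those of Caki-1 ask for presence in both replicates.

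Counted by gene, the arms differed less than they did by peaks, and 786-O had the smaller share of marked genes on the long arm. Of the short-arm genes, 569 of 1064 protein-coding genes (53.5%) had a gene-start peak in 786-O, against 598 (56.2%) and 617 (58.0%) in replicates 1 and 2 of Caki-1. Of the long-arm genes, 472 of 973 (48.5%) had one in 786-O, against 558 (57.3%) and 577 (59.3%). Over all 19974 protein-coding genes the shares were 50.6% in 786-O, against 53.5% and 55.8%. A gene-start peak in every library was found for 491 short-arm genes (46.1%) and 435 long-arm genes (44.7%), against 43.0% of all genes. No library had one for 365 short-arm genes (34.3%) and 345 long-arm genes (35.5%), against 37.2% of all genes. Against those backgrounds the long-arm share of 786-O lay below, and the other library shares of both parts lay above.

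Few genes were specific to 1 line. A gene was counted as specific when it had a gene-start peak in that line, in both libraries for Caki-1, and no peak within 5 kb of its start or either end in the other. 24 short-arm genes (2.26%) and 16 long-arm genes (1.64%) were specific to 786-O, against a background of 1.92%. 21 short-arm genes (1.97%) and 54 long-arm genes (5.55%, interval 4.20 to 7.18) were specific to Caki-1, against a background of 4.03%. In this setting the short-arm part thus held a smaller share of Caki-1-specific genes than the genome, with an interval of 1.23 to 3.001, and the long-arm part a larger one. Among genes of known strand only, 18 of 903 in the short-arm part and 35 of 833 in the long-arm part were specific to Caki-1. The background was not computed for those genes, so the larger long-arm share is given for the main setting alone. The shares specific to 786-O lay near the background on both arms. These counts move with the settings, and the background was computed for the main setting only. Those specific to 786-O were 38 and 27 without the distance of 5 kb, and 37 and 32 with a window of 3 kb. Those specific to Caki-1 were 63 and 99 without the distance of 5 kb. The order of the short-arm counts of 786-O and Caki-1 also turned with the setting. The short-arm count for 786-O was 40 without Caki-1 replicate 2, and the short-arm count for Caki-1 was 40 without replicate 1 and 36 without replicate 2.

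The genes with the highest-ranked peaks in all 3 libraries included genes of splicing, of the centriole and of mitosis. In the short-arm part ZRANB2 had a signal of 102 in 786-O (chr1:71080621-71081536), against 90 in Caki-1 replicate 1 and a score of 517 in replicate 2. STIL had 97 in 786-O (chr1:47313569-47314493), against 108 and a score of 399. ARMH1 and TMEM53 share a peak between them with 109 in 786-O, against 80 and a score of 508, and DEPDC1, a gene of mitosis, had 97 in 786-O, against 80 and 429. The lowest rank of these 5 genes in any list was 99.0.

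In the long-arm part the highest peak was shared by ARID4B, a chromatin regulator gene, and GGPS1, a gene of isoprenoid synthesis. It had a signal of 141 in 786-O (chr1:235327965-235329332), against 133 and a score of 587 in Caki-1. CACYBP had 173 in 786-O (chr1:174998702-175000310), against 206 and 569. ODR4 shares its peak with TPR, the gene of a nuclear pore basket protein, with 125 in 786-O (chr1:186374776-186375932), against 149 and 653. These long-arm genes ranked at the 99.9 percentile of each list, which follows from choosing genes by their lowest rank in any list.

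The widest peaks of the short-arm part lay at gene starts. The peak of 2440 bp in 786-O (chr1:46301439-46303878) and that of 2328 bp in Caki-1 replicate 1 both covered the shared start of LRRC41 and UQCRH, which encodes a hinge protein of respiratory complex III. In Caki-1 replicate 2 the widest, 2368 bp, lay at USP24, a deubiquitinase gene. In the long-arm part the widest was 2482 bp at the start of RCOR3, a corepressor gene, in 786-O. In Caki-1 the widest lay inside genes and away from their starts, with 2482 bp in RPS6KC1 in replicate 1 and 2800 bp in the glycosyltransferase gene GALNT2 in replicate 2.

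Genes specific to 786-O had peaks of moderate strength. In the short-arm part B3GALT6 and SDF4, a gene of the Golgi lumen, share a peak with a signal of 38, at the 82.6 percentile (chr1:1231745-1232156). AHCYL1, a partner of the inositol trisphosphate receptor, had 36, and MARCKSL1, an actin-binding protein gene, and RER1, a gene of retrieval to the endoplasmic reticulum, had 35 each. In the long-arm part FCRLA had 26 (chr1:161706161-161707018), LCE3A 26, KIAA0040 20, KPLCE 20 and FAM78B 19. LCE3A and KPLCE belong to the epidermal complex described above. The highest rank among the 5 long-arm genes was 63.3.

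Genes specific to Caki-1 had stronger peaks in the long-arm part. NUP133 had a signal of 69 in replicate 1 (chr1:229508006-229509000) and a score of 265 in replicate 2, at ranks of 98.1 and 97.7. ANKRD35 had 64 and 357, KCNT2, a potassium channel gene, had 62 and 342, NENF, which encodes the secreted protein neudesin, had 86 and 234, and the cardiac troponin T gene TNNT2 had 56 and 191. The lowest rank of these 5 genes in either list was 94.4, and no peak lay within 5 kb in 786-O. On the short arm SPAG17 led with 43 and 156, ranks of 90.1 and 91.2. SLC25A33, a mitochondrial carrier gene of pyrimidine nucleotides, had 33 and 141, NIPAL3 and STPG1 share a peak with 36 and 81, and GSTM2 had 31 and 110. GSTM2 has close copies beside it, so its value is uncertain.

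Lists of genes by function show which roles carried the mark on this chromosome. 11 lists place 188 distinct genes on chromosome 1, with 92 in the short-arm part and 96 in the long-arm part. Against the background of 43.0% of all protein-coding genes with a gene-start peak in all 3 libraries, the counts below are descriptions. Of the 23 cell cycle and mitosis genes 22 had one in all 3 libraries, all but MAD2L2. DTL, which directs replication factors to degradation, had a signal of 101 in 786-O, against 130 and a score of 659 in the Caki-1 libraries, and CENPL, a kinetochore gene, had 66 in 786-O, against 120 and 467. CLSPN, a gene of the replication checkpoint on the short arm, had 88 in 786-O, against 64 and 186, and CDC20, the activator of the anaphase-promoting complex, also on the short arm, had 56 in 786-O, against 43 and 189. Of the short-arm genes of this list marked in both 786-O and Caki-1 replicate 1, 7 of 10 had the higher signal in 786-O, before any scaling of the lists, and STIL, RPA2 and KIF2C had the lower. All 12 of the long-arm genes had the lower signal in 786-O. Over all shared gene-start peaks the median log2 ratio, also before scaling, was 0.39 in the short-arm part and -0.46 in the long-arm part. The split by arm is thus not particular to this list.

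The lists of RNA processing (16 of 18 in all 3 libraries) and of the respiratory chain and TCA cycle (9 of 11) were also marked in most cases. These counts take in members whose main role lies outside the name of the list. THRAP3, a splicing-associated gene of the short arm, had 121 in 786-O, against 62 and a score of 276, and DHX9, an RNA helicase gene of the long arm, had 59 in 786-O, against 101 and 449. SDHB, a subunit gene of succinate dehydrogenase on the short arm, had 49 in 786-O, against 50 and 191. FH, the fumarate hydratase gene on the long arm and a known tumour suppressor of renal cancer, had 57 in 786-O (chr1:241518915-241519981), against 94 and 452. Its neighbour in function SDHC, also on the long arm, had 20 in 786-O, against 58 and 235. ATP5IF1 had no gene-start peak in Caki-1 replicate 1. In the translation list 12 of 16 were marked in all 3 libraries, among them EPRS1 with 81 in 786-O, against 129 and 404, while RPL11 and EIF3I were marked in both Caki-1 libraries only and EIF4G3 in none.

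Of 33 cancer genes 22 had a gene-start peak in all 3 libraries. MTOR had a signal of 61 in 786-O, against 46 and a score of 161, and NRAS had 56 in 786-O, against 40 and 193, both on the short arm. MDM4, an inhibitor of p53 on the long arm, had 31 in 786-O, against 66 and 431. BCL9 and PARP1, both on the long arm, had gene-start peaks in Caki-1, in both libraries, without one in 786-O, where each had a peak within 5 kb of one of its ends. MYCL on the short arm had one in 786-O only (signal 14), and ARID1A in Caki-1 replicate 2 only (score 37). NOTCH2, PIK3CD, TP73, RUNX3, EPHA2 and DDR2 had none.

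Chromatin regulators had 14 of 21 in all 3 libraries. RBBP4, a histone chaperone gene of the short arm, had 74 in 786-O, against 66 and a score of 215, and KDM4A, a histone demethylase gene of the same arm, had 89 in 786-O, against 54 and 220. KDM5B on the long arm and PHC2 on the short arm had gene-start peaks in both Caki-1 libraries only, each with a 786-O peak within 5 kb, and PRDM2, CHD5 and BRDT had none. In the hypoxia list 5 of 9 were marked in all 3 libraries, among them ARNT, the partner of the hypoxia-inducible factors, with 55 in 786-O, against 58 and 263, and the oxygen sensor EGLN1 with 43 in 786-O, against 70 and 229. SLC2A1, the glucose transporter gene, had 39 and a score of 119 in Caki-1, ENO1, an enolase gene, had 29 and 67, and the endothelin gene EDN2 had 27 and 81. These 3 are short-arm genes with no gene-start peak in 786-O, though each had a 786-O peak within 5 kb.

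Glycolysis, glucose and lactate transport had 4 of 11 genes in all 3 libraries, PGD, PGM1, SLC16A1 and MPC2. SLC16A1, a lactate carrier gene of the short arm, had 58 in 786-O, against 31 and a score of 88, and MPC2, of the mitochondrial pyruvate carrier and on the long arm, had 74 in 786-O, against 101 and 280. Cell surface, matrix and junction genes had 9 of 22, led by F11R with 45 in 786-O, against 61 and 439, and LAMB3, a laminin gene, with 44 in 786-O, against 41 and 135. Tissue genes were mostly without the mark. Of 16 neuronal and muscle genes KCNH1 alone had a gene-start peak in all 3 libraries, and LRRC7, TNNT2, TNNI1 and ACTN2 were specific to Caki-1. Of 16 olfactory, epidermal and blood genes, all on the long arm, none had one in all 3 libraries, 14 had none in any, and LMOD1, a smooth muscle gene, was specific to Caki-1 with 34 and 132.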

How the data were processed

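Peak lists of H4K12la CUT&Tag were used for 786-O replicate 2 and for both Caki-1 replicates. The first 786-O replicate was not analysed here. Per the submitters' processing notes, which give no roles, fastp 0.19.6, Bowtie2 and deepTools were used with hg38, or GRCh38. Depth, peak caller, threshold and controls are not given in the sources, and each deposited list was called per library. Column 6 of the deposited lists of 786-O and Caki-1 replicate 1 was read from its values as the signal at the summit, with no stated scaling to depth. Column 6 of the deposited list of Caki-1 replicate 2 was read as a score, since column 5 lies inside the peak in 9.65% of its lines, against 100% in the others. Column 4 of the deposited lists is the width of the peak in bp.

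Shares of a list, overlaps of at least 1 bp, percentile ranks of column 6 within a list and peaks by gene were computed with Python 3.11.15, pandas 2.3.3, numpy 2.4.6 and scipy 1.17.1. Shares carry exact (Clopper-Pearson) 95% intervals. Scripts were tested on altered copies of the Caki-1 replicate 1 list, in which a known share of peaks was removed or moved. An overlap count was also checked with bedtools. Genes are the 19974 protein-coding genes of RefSeq on GRCh38.p14. The start was used for 15812 genes with a known strand (1747 of 2062 on chromosome 1) and either end for the others. The distance of 5 kb in the definition of line-specific genes was fixed for both ends, and the start was added to it after the data were seen. Column 6 stood in for strength.

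Bins of 10 Mb with fewer than 50 peaks in the 3 lists together were left out. The members, the gene lists and the tests were chosen with earlier results of these data known. Genes named per part are the 5 whose lowest rank among the libraries is highest, the 5 highest-ranked specific to each line, those at the widest peaks and, for the 3 bins with the highest and the 3 with the lowest ratio, the gene whose start peak has the highest rank in any list. Of the gene lists, counts and examples are given. Sequences were printed for the 2 top genes of the short-arm part, for CACYBP and ODR4 of the long-arm part and for the top gene specific to each line per part. In the long-arm part ARID4B and GGPS1 stand above CACYBP and ODR4 by this order, and the windows of the latter pair are the ones shown. Alternatives changed the strength, width, window, overlap, bin size, fold and library, and those on gene strand and on leaving out 5 bins were chosen after seeing the data. A few genes of the lists are counted in them and not reported here by name.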

Additional observations from a re-analysis of the deposited data

Results flagged for a closer look

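Peaks of the first 1 Mb of chromosome 1 lie outside the rule and enter none of the comparisons above. There were 14 of them in 786-O, 7 in Caki-1 replicate 1 and 7 in Caki-1 replicate 2. The highest value of column 6 in each whole list lies there, with a signal of 1335 in 786-O, a signal of 3742 in Caki-1 replicate 1 and a score of 5677 in Caki-1 replicate 2. Medians of column 6 over the lists are 21, 21 and 48.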

How the results depend on the processing

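Of 112 values recomputed 52 stayed within a set limit and 60 moved beyond it. The limit was 1.5 times for counts and the spread of the Caki-1 replicates for shares and percents. For the centred signal it was taken from the 95% interval of the median over peaks. The signs of the log2 share ratios, of the difference in long-arm percent and of the centred signal held under every alternative run. No paired analysis was possible, since nothing in the labels pairs a 786-O library with a Caki-1 library. The long-arm percent of 786-O minus the Caki-1 mean was -23.3 points, and -26.8 in the stronger 50% of each list, -25.5 among its 40000 highest peaks, -24.6 by covered bases, -26.8 away from gene starts, -3.95 at gene starts and -25.1 for peaks of at least 500 bp. In the same order the log2 share ratio of the short-arm part, 0.47, became 0.54, 0.48, 0.49, 0.56, 0.048 and 0.51, and that of the long-arm part, -0.91, became -1.06, -1.03, -0.96, -1.03, -0.18 and -0.98. Without bins 8 to 10, 19 and 20, an alternative chosen after seeing the data, the values were -19.2, 0.34 and -0.79. Why the ratio is near 0 at gene starts was not tested. With the first 1 Mb included or either Caki-1 library left out, these 3 results moved by less than the spread of the Caki-1 replicates, and the difference in long-arm percent ran between -23.5 and -23.2 points with 1 library left out.

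Bins called higher and lower, 9 and 10 of 23, numbered 14 and 18 of 45 at 5 Mb, 4 and 5 of 12 at 20 Mb and 3 and 9 of 23 at a fold of 1.5. The share over all chromosomes was not computed at these alternatives. The centred signal of the short-arm part, 0.27, was 0.21 in the stronger 50% of 786-O peaks and 0.21 with gene-start peaks centred on themselves, and that of the long-arm part, -0.59, was -0.65 and -0.65. Sharing of 786-O peaks, 41.4% in the short-arm and 64.8% in the long-arm part, was 31.9% and 45.8% at a reciprocal overlap of 50% and 47.5% and 76.6% in the stronger 50%, and that between Caki-1 replicates, 63.8% and 64.5%, was 52.3% and 52.6%, and 68.7% and 70.6%. The gap between the arms for 786-O thus narrowed but kept its direction at the reciprocal overlap. On the long arm 786-O sharing, near that of the Caki-1 replicates, fell below it at the reciprocal overlap.

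Genes specific to 786-O, 24 in the short-arm and 16 in the long-arm part, numbered 37 and 32 with a window of 3 kb, 38 and 27 without the distance of 5 kb, and 32 to 40 and 16 to 22 with 1 Caki-1 library left out. Genes specific to Caki-1, 21 and 54, numbered 63 and 99 without that distance and 36 to 40 and 69 to 77 with 1 Caki-1 library left out. With genes of known strand only, an alternative chosen after seeing the data that tests fewer genes, they numbered 35 of 833 in the long-arm part. The background share over all genes was computed at none of these alternatives. The order of the short-arm counts, 24 for 786-O and 21 for Caki-1, turned to 16 and 17 at 500 bp, 38 and 63 without the distance, 32 and 40 without Caki-1 replicate 1, and 17 and 18 with genes of known strand only. Gene-start peaks, 15.0% in 786-O against 21.3% in the Caki-1 mean of the short-arm part and 17.6% against 11.3% in the long-arm part, were 13.6%, 19.8%, 16.0% and 10.3% with a window of 500 bp, 18.3%, 24.6%, 21.3% and 13.6% with 3 kb, and 16.7%, 22.5%, 19.4% and 12.95% with either end of every gene, also chosen after seeing the data. Depth is unknown, so a peak missing from a list may lie below its threshold.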
